A study of Zea mays with 12 samples.

Results

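Leaf transcript levels of 2 tropical maize (Zea mays) inbred lines were compared in limed soil, where no aluminium stress was applied. S1587-17 is labelled sensitive to aluminium and Cat100-6 tolerant, and the comparison holds how their seedlings differed before acid soil is considered. The titles place 6 of the 12 arrays of the series in control soil, 3 of S1587-17 and 3 of Cat100-6. Seeds had germinated for 2 days and the seedlings then stood for 3 days at 26 °C in a soil whose original pH of 4.1 had been raised to 5.5 with lime (0.8 g/kg Ca(OH)2), which left aluminium undetectable per the labels. The other 6 arrays, 3 of each line in the same soil without lime, give a second view of the line difference. They also enter the fit, so the standard errors and p-values of both soils rest on a spread estimated over all 12 arrays. A deviating control soil array therefore also enters the acid soil tests. Both soils received the same fertiliser, and all groups share the seedling stage, the chamber and the harvest time. Where the labels spell the tolerant line Ca100-6, or speak of root leaves in the description, Cat100-6 and leaves were understood, as the titles and the tissue label have it. The labels call the 3 samples of a group biological replicates and do not say whether each had a soil bag of its own. The p-values therefore cover no more than the spread among the samples used, which may be technical.

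A young maize leaf grows from its base. Cells divide there, make ribosomes and fold new proteins, and only later, towards the tip, build the photosynthetic apparatus of C4 leaves, in which mesophyll cells first fix carbon and bundle sheath cells hold the Calvin cycle. Ribosomal proteins, histones and replication factors are therefore markers of young, dividing tissue, and photosynthetic enzymes, sucrose synthesis and lignin enzymes of mature tissue. Inbred lines of maize also differ widely in gene content and sequence, so that a transcript can be abundant in one line and near the background in another.

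Values are log2 RMA levels, and a difference is S1587-17 minus Cat100-6 on that scale, given with the standard error of the fit after the sign ±. A difference of 1 is 2-fold. A probe set passed where its limma p-value, adjusted over all 17621 probe sets, was under 0.05. In whole leaves, fewer cells of a type and less RNA per cell cannot be told apart. Which lines the probes were designed on is not given in the sources used here, and a transcript that matches them less well cannot be told apart from a transcript that is less abundant.

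One array stood apart. Across probe sets, replicate 3 of S1587-17 in control soil correlated at 0.963 to 0.967 with the other arrays of its group and at 0.950 to 0.953 with the Cat100-6 control soil arrays, whereas its group-mates correlated with each other at 0.995 and with Cat100-6 at 0.902 to 0.914. The Cat100-6 control soil arrays correlated among themselves at 0.996 to 0.997. Replicate 3 was kept, and counts without it are given beside those of the gene groups. For 5 control genes probed at both ends, the 3′ level minus the 5′ level, which follows RNA quality and labelling, was 0.34 ± 0.16 in S1587-17 and 0.93 ± 0.09 in Cat100-6 control soil arrays (SD, n = 3 each), and 0.32 and 0.77 on average in acid soil. For the array's DapX controls it was 1.44 ± 0.12 in S1587-17 and 2.27 ± 0.08 in Cat100-6 control soil arrays. In acid soil the DapX averages were 1.45 and 2.30. Both measures moved with the line in both soils, and their part in the line differences was not tested. Spiked hybridization controls averaged 10.26 ± 0.05 in S1587-17 and 10.21 ± 0.21 in Cat100-6. The level of the DapX controls was 8.32 ± 0.29 in S1587-17 and 9.12 ± 0.02 in Cat100-6 control soil arrays. In acid soil it averaged 8.27 in S1587-17 and 8.36 in Cat100-6. The part of this in the line differences was not tested either.

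The leaves of the lines differed at many genes. In control soil 9071 probe sets passed (51.5%), 4094 higher in S1587-17 (23.2%) and 4977 lower (28.2%), with a median difference of -0.08 over all probe sets. By at least 2-fold, 1922 were higher (10.9%) and 1508 lower (8.56%). The 3 arrays of one line did not overlap those of the other at 9774 probe sets (55.5%). Without replicate 3 of S1587-17, 10804 passed (61.3%), 4704 higher (26.7%) and 6100 lower (34.6%). Of the 1108 genes that the array's annotation names, 284 were higher and 330 lower when each was read by its brightest probe set. With a background this large, the share of a gene group that passed says little by itself. The counts of every group below are to be read beside the 23.2% higher and 28.2% lower of all probe sets. Counts without replicate 3 are to be read beside 26.7% higher and 34.6% lower, since calls became more frequent over all probe sets when it was left out.

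The genes ranked had a readable name, were read by their brightest probe set, passed with and without replicate 3 and had groups that did not overlap. Among them the largest rise was in a light-harvesting gene. Lhcb5-2, which encodes a chlorophyll a/b-binding antenna protein, stood at 13.38, 13.53 and 13.52 in S1587-17 and at 8.48, 8.81 and 8.69 in Cat100-6, a difference of 4.82 ± 0.10 or 28.2-fold (adjusted p = 9.4e-11). The 3 arrays of S1587-17 lay close together, replicate 3 included, and in acid soil the difference was 5.21. The related antenna gene lhcb5 was lower in S1587-17 by a small margin, at 13.78, 13.80 and 13.94 against 14.12, 14.09 and 14.11 in Cat100-6 (-0.26 ± 0.08, adjusted p = 0.019), and missed the threshold without replicate 1 or replicate 2 of S1587-17 (-0.24 in both cases) or without replicate 1 of Cat100-6 (-0.26). It also missed it when the 6 control soil arrays were fitted alone (-0.26), after a second quantile normalization (-0.17) and when scaled to the hybridization controls (-0.32). The plasma membrane aquaporin pip2b, a water channel, was at 7.33, 7.75 and 8.11 in S1587-17 and at 3.58, 4.16 and 3.31 in Cat100-6, which is 16.5-fold higher (adjusted p = 1.8e-07). All 3 S1587-17 arrays were far above the Cat100-6 arrays, and pip2b differed by 4.16 in acid soil.

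Further genes were higher in S1587-17 in both soils. The MADS-box gene zmm19, also called tunicate1, was at 8.13, 8.11 and 6.72 in S1587-17 and 4.25, 3.76 and 3.78 in Cat100-6 (3.73 ± 0.32), and differed by 2.95 in acid soil (adjusted p = 5.2e-05). For m20 the levels were 7.89, 7.88 and 6.90 in S1587-17 and 4.48, 3.72 and 3.74 in Cat100-6, a difference of 3.57 ± 0.31, with 2.97 in acid soil. ARLC stood at 6.95, 6.52 and 7.23 in S1587-17 and 3.63, 3.55 and 3.35 in Cat100-6, a difference of 3.39 ± 0.19 that was 3.13 in acid soil. No array of one line reached the other line's range in these genes. The glutathione transferase gst42, of a family that attaches glutathione to reactive compounds, was at 9.34, 9.60 and 7.40 in S1587-17 and 6.13, 5.24 and 5.45 in Cat100-6 (3.17 ± 0.47; 3.73 in acid soil). The histone gene his2b5 was at 10.33, 10.60 and 7.46 in S1587-17 and 6.62, 5.85 and 6.60 in Cat100-6 (3.11 ± 0.64; 3.77 in acid soil). In gst42 and his2b5 replicate 3 of S1587-17 lay between its group-mates and Cat100-6, above every Cat100-6 array.

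Other genes were strongly higher in S1587-17 in control soil, did not pass in acid soil, and had a passing difference between the soils. The defence-list gene prp2 was at 12.45, 11.98 and 11.19 in S1587-17 and 8.98, 8.69 and 8.59 in Cat100-6, which is 8.67-fold higher, against a difference of -0.26 in acid soil (adjusted p of the change 6.8e-04). Calreticulin crt2, a calcium-binding chaperone of the endoplasmic reticulum, was at 11.84, 12.25 and 11.10 in S1587-17 and 8.74, 8.83 and 8.73 in Cat100-6, 7.79-fold higher, and 0.41 apart in acid soil (adjusted p of the change 0.0017). In prp2 and crt2 all 3 arrays of S1587-17 were well above Cat100-6, replicate 3 being the lowest.

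Replicate 3 decided how large the next differences were. The chromatin assembly genes nfd101 and nfd106 are of the HMG type, and nfd101 was at 11.76, 11.78 and 7.26 in S1587-17 and 6.82, 6.87 and 6.64 in Cat100-6. Its difference was 3.49 ± 0.93 with all arrays and 4.99 without replicate 3. For nfd106 the levels were 9.23, 9.64 and 5.27 in S1587-17 and 4.40, 4.66 and 4.83 in Cat100-6 (3.41 ± 0.87, and 4.80 without replicate 3). The replication clamp gene pcna2, whose product holds DNA polymerase on its template, was at 10.25, 10.69 and 6.80 in S1587-17 and 5.91, 5.83 and 6.06 in Cat100-6 (3.32 ± 0.77, and 4.54 without replicate 3). Farnesyl diphosphate synthase fps1, an enzyme of isoprenoid synthesis, was at 9.63, 9.67 and 6.83 in S1587-17 and 5.99, 5.56 and 5.68 in Cat100-6 (2.97 ± 0.60, and 3.90 without replicate 3). The β-glucosidase glu1, which frees benzoxazinoid defence compounds from their glucosides, was at 9.79, 10.59 and 6.04 in S1587-17 and 5.82, 5.96 and 5.36 in Cat100-6 (3.09 ± 0.86, adjusted p = 0.011, and 4.47 without replicate 3), and missed the threshold when the 6 control soil arrays were fitted alone (adjusted p = 0.056). Replicate 3 lay just above the Cat100-6 arrays in these 5 genes, and its group-mates lay far above both. In acid soil the differences of these genes were 0.52 for nfd101, 0.67 for nfd106, 1.00 for pcna2, 0.18 for fps1 and -0.71 for glu1, none of which passed. The shared spread includes replicate 3, so missing the threshold in acid soil says little here. For nfd101 the standard error was 0.93 in both soils. Its acid soil arrays had SDs of 0.26 in S1587-17 and 0.52 in Cat100-6.

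Among genes chosen in the same way the largest fall was in pdc2, a gene of pyruvate decarboxylase, the first enzyme of ethanol fermentation. Its brightest probe set stood at 4.00, 3.89 and 4.30 in S1587-17 and 9.53, 9.46 and 9.36 in Cat100-6, which is 41.9-fold lower (-5.39 ± 0.21, adjusted p = 1.3e-08), and differed by -5.07 in acid soil. The other probe sets of pdc2 differed by -2.73, -0.66 and 1.00 in control soil, all passing, so that the size and the direction depend on the probe set. prpo1 was at 6.41, 6.39 and 7.16 in S1587-17 and 11.50, 11.52 and 11.39 in Cat100-6 (-4.81 ± 0.29; -3.69 in acid soil). The arrays of both lines were tight except replicate 3 of S1587-17, which was a little nearer to Cat100-6 in prpo1.

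Catalases, which break down hydrogen peroxide, were lower in S1587-17. cat2 was at 6.74, 6.59 and 7.94 in S1587-17 and 10.97, 10.91 and 10.81 in Cat100-6, 14-fold lower (adjusted p = 2.5e-05), and CAT3 at 9.81, 9.43 and 9.74 in S1587-17 and 12.09, 11.97 and 11.95 in Cat100-6, 5.08-fold lower. Both were also lower in acid soil, with differences of -2.24 and -1.16. The peroxidase gene PER42 was at 7.85, 7.65 and 8.72 in S1587-17 and 10.25, 10.78 and 11.06 in Cat100-6 (-2.62 ± 0.49), with -0.46 in acid soil, where it did not pass. Among the lowest was also a gibberellin gene: an1, for the enzyme that commits diterpene precursors to gibberellin, was at 6.88, 6.72 and 8.18 in S1587-17 and 10.81, 10.73 and 10.80 in Cat100-6, 11.5-fold lower (adjusted p = 1.7e-04), with a difference of -1.56 in acid soil.

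Enzymes of sucrose, sulfur and glyoxylate metabolism were among the lowest. Sucrose synthase sus2, which cleaves sucrose, was at 4.75, 4.26 and 5.01 in S1587-17 and 8.12, 7.77 and 8.02 in Cat100-6 (-3.30 ± 0.24). Sucrose phosphate synthase sps1, which makes it, was at 7.39, 7.59 and 8.81 in S1587-17 and 10.09, 10.75 and 10.59 in Cat100-6 (-2.55 ± 0.49). The acid soil differences were -2.18 for sus2, which passed, and 0.62 for sps1, which did not. aprl1, a gene of the reductase step of sulfate assimilation, was at 8.37, 9.26 and 9.42 in S1587-17 and 11.80, 12.29 and 12.06 in Cat100-6 (-3.03 ± 0.27; -2.06 in acid soil). Malate synthase mas1, of the glyoxylate cycle by which seedlings use stored oil, was at 6.02, 5.80 and 6.37 in S1587-17 and 9.01, 8.48 and 8.74 in Cat100-6 (-2.68 ± 0.20; -2.77 in acid soil). No array of one line overlapped the other line in any of these genes.

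The remaining genes of the 15 lowest were a chitinase, a small heat shock protein, a potassium channel, a lignin enzyme and m21. Chitinase chn1, which acts on fungal walls, was at 5.52, 5.26 and 7.09 in S1587-17 and 9.05, 8.98 and 8.77 in Cat100-6 (-2.98 ± 0.45). hsp18, a small heat shock protein, was at 6.09, 5.85 and 6.25 in S1587-17 and 8.93, 8.26 and 9.20 in Cat100-6 (-2.74 ± 0.27). m21 was at 5.09, 5.26 and 4.84 in S1587-17 and 7.61, 7.59 and 7.95 in Cat100-6 (-2.65 ± 0.14). In chn1 replicate 3 of S1587-17 stood above its group-mates, and in the other 2 genes the S1587-17 arrays lay close together. The potassium channel gene kch3 was at 3.55, 3.55 and 4.45 in S1587-17 and 5.90, 6.07 and 6.67 in Cat100-6 (-2.36 ± 0.37), and cinnamoyl-CoA reductase cncr1, the entry to lignin monomers, at 8.05, 8.44 and 9.56 in S1587-17 and 11.06, 10.92 and 10.99 in Cat100-6 (-2.30 ± 0.37). In acid soil hsp18 and m21 were lower too (-1.06 and -2.35), and the differences of chn1, kch3 and cncr1 were -0.81, -0.35 and -0.55, which did not pass.

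**Figure D1:**
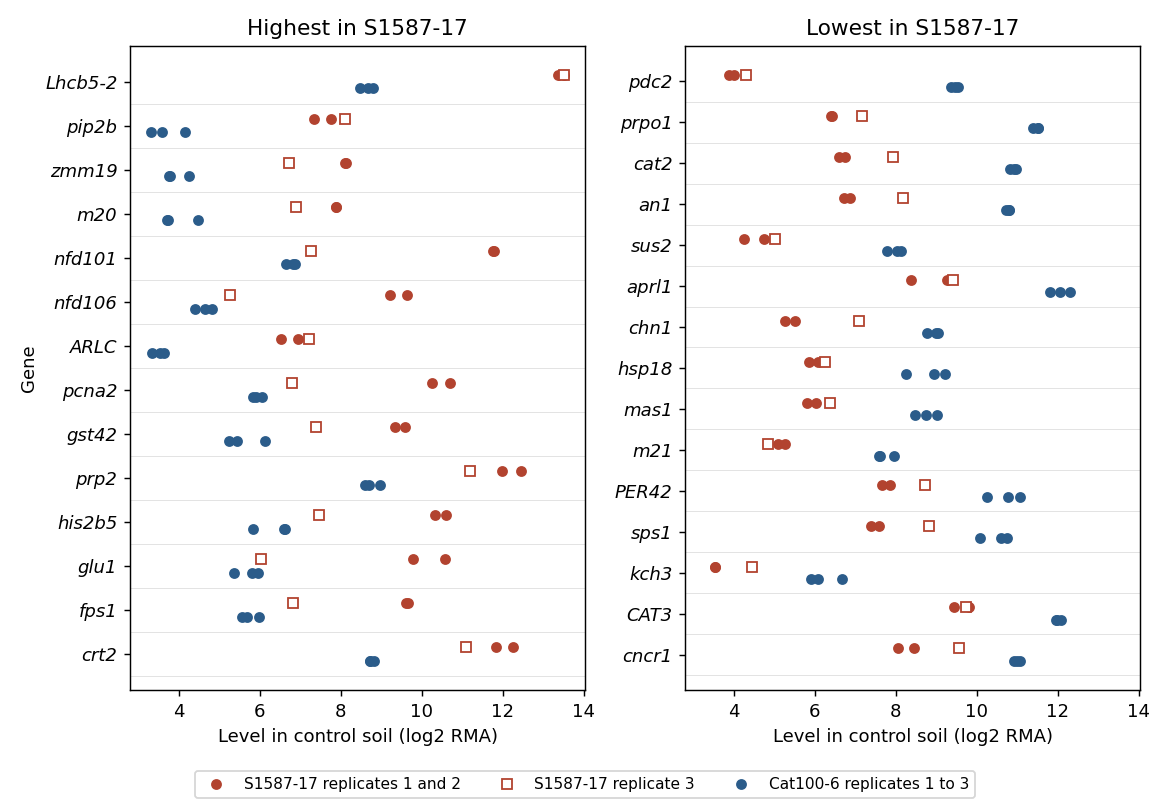
Log2 RMA levels in control soil of the named genes with the highest and with the lowest line difference, 1 point per array, with S1587-17 above Cat100-6 in each row. Replicate 3 of S1587-17 (open squares) sits with its group-mates in Lhcb5-2, pip2b, ARLC, pdc2 and CAT3 and near the Cat100-6 arrays in nfd101, nfd106, pcna2 and glu1.

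Genes of protein synthesis were higher in S1587-17. Of 28 probe sets of ribosomal proteins (19 genes), 21 were higher and 0 lower, with a median of 1.10 against -0.08 over all probe sets. The other 7 did not pass, 3 of them below 0. The mean over the list was 10.99, 11.00 and 10.39 in S1587-17 and 9.88, 9.86 and 9.82 in Cat100-6, so that replicate 3 stood between its group-mates and Cat100-6. The acidic stalk protein RP-P0 was at 12.08, 12.48 and 11.51 in S1587-17 and 10.38, 10.41 and 10.22 in Cat100-6 (1.68 ± 0.22, adjusted p = 1.0e-04), and rpp2a-3, another stalk protein, at 10.86, 10.82 and 10.06 in S1587-17 and 9.06, 8.85 and 8.79 in Cat100-6 (1.68 ± 0.22). The small subunit protein rps27 differed by 1.15 ± 0.16 and the large subunit protein RPL10 by 0.95 ± 0.12. Without replicate 3, 22 were higher and 1 lower, with a median of 1.30. In acid soil, where 10.6% of all probe sets were higher and 13.3% lower, 1 was higher and 0 lower (median 0.13), and the change between soils was positive and passed in 15 probe sets.

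Protein folding genes were mostly higher where they passed. Among 36 probe sets of chaperones (23 genes), 24 were higher and 3 lower, with a median of 0.87; without replicate 3 the counts were 28 and 4, and the median 1.15. Beside crt2, the protein disulfide isomerase genes pdi4 and pdi3, which form disulfide bonds in new proteins, were raised. pdi4 was at 7.80, 8.20 and 7.41 in S1587-17 and 5.71, 5.62 and 5.61 in Cat100-6 (2.16 ± 0.17, with 2.49 on another probe set and -0.10 on a dim one), and pdi3 at 9.14, 9.34 and 8.66 in S1587-17 and 7.62, 7.51 and 7.39 in Cat100-6 (1.54 ± 0.16, and 0.68 on its other probe set). The calnexin gene CNX and the Hsp70-type genes bip1 and bip2, chaperones of the same compartment, were higher by 1.43 on the brightest CNX probe set, 1.38 and 0.81. The 3 lower ones were the heat shock genes hsp18, hsp18f (-1.20) and hsp101 (-0.96), while hsp18c was higher (0.62). CNX, bip1, bip2 and the last 3 heat shock genes were named after their values were seen. In acid soil 5 were higher and 5 lower (median -0.03), with pdi4 and pdi3 higher by 1.05 and 0.62. The other probe set of pdi3 was lower there, by -0.77 (adjusted p = 0.028 in limma).

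Cell division genes were mostly higher in S1587-17 where they passed. In 66 probe sets of histones, replication factors, cyclins and tubulins (45 genes), 35 were higher and 6 lower, with a median of 0.73. The list mean was 8.41, 8.53 and 7.36 in S1587-17 and 7.40, 7.40 and 7.40 in Cat100-6. Replicate 3 stood at the level of Cat100-6, below both other S1587-17 arrays. Without it 44 were higher and 10 lower, and the median was 1.12. In acid soil 5 were higher and 6 lower, with a median of 0.05.

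The 3 tubulin genes named by lowest p, for subunits of microtubules, were higher on all 3 arrays of S1587-17. tub4 was at 12.23, 12.03 and 12.02 in S1587-17 and 10.39, 10.31 and 10.60 in Cat100-6 (1.66 ± 0.11, adjusted p = 9.9e-07). The α-tubulin gene tua6 was at 12.16, 12.13 and 11.63 in S1587-17 and 10.92, 10.84 and 11.16 in Cat100-6 (1.00 ± 0.14). TUA1 was at 11.18, 11.51 and 10.88 in S1587-17 and 10.06, 10.11 and 10.32 in Cat100-6 (1.03 ± 0.15), with 1 further, dim probe set at -0.20 that did not pass. In tua6 and TUA1 replicate 3 of S1587-17 lay below its group-mates and above every Cat100-6 array. rrb1, a retinoblastoma-related gene whose product holds back entry into division, was lower in S1587-17, at 6.65, 6.46 and 7.02 against 7.77, 7.73 and 7.62 in Cat100-6, 1.99-fold lower. In acid soil tub4 differed by 0.27, tua6 by -0.22 and rrb1 by -0.41, and none of these passed. A second probe set of rrb1 differed by -1.10 in control soil and by -0.60 in acid soil, where it passed.

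Chromatin modifiers passed in both directions, in a share near that of all probe sets. Among 46 probe sets of chromatin modifiers 14 were higher and 8 lower (median 0.13), and 21 and 9 without replicate 3. The 4 named by lowest p were lower in S1587-17: the histone deacetylase genes rpd3 (-1.31 ± 0.17) and hda101 (-0.82 ± 0.17), the histone acetyltransferase gene hac108 (-1.03 ± 0.12) and met4 (-0.53 ± 0.10). Of 29 probe sets of leaf development genes 7 were higher and 2 lower, and 11 and 2 without replicate 3. lbl1, which acts in the small RNA pathway that sets the upper and lower leaf faces, was at 8.80, 9.17 and 6.54 in S1587-17 and 5.74, 5.47 and 5.37 in Cat100-6 (2.64 ± 0.53, and 3.46 without replicate 3). The growth-regulating factor GRF5 and its partner GIF3 differed by 0.88 ± 0.21 and 1.61 ± 0.33, and GRF8 by 2.35 ± 0.55, with its other 2 probe sets at -0.03 and 0.35.

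**Figure D2:**
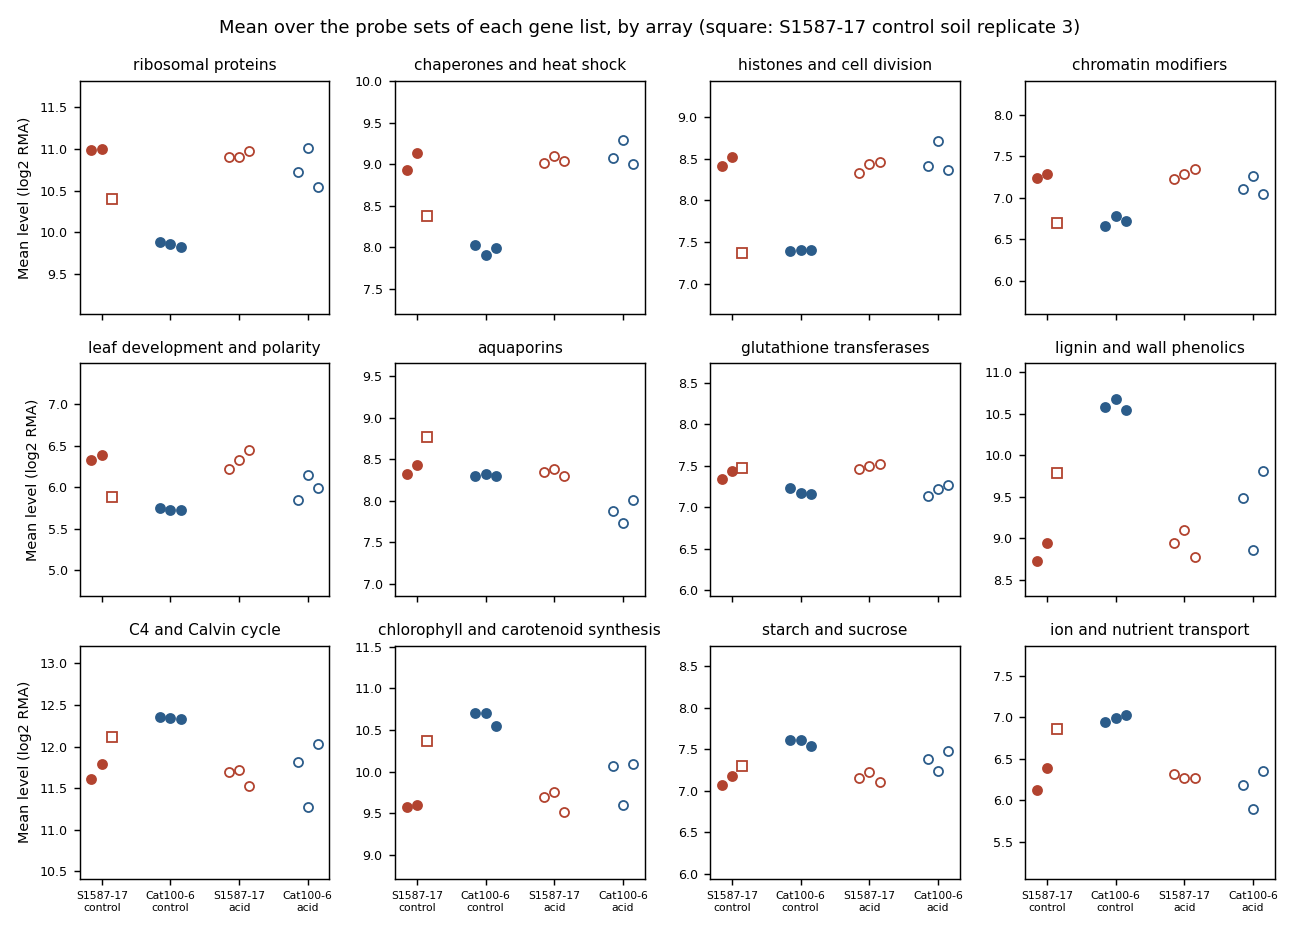
Mean log2 RMA level over the probe sets of 12 gene lists, 1 point per array, for S1587-17 and Cat100-6 in control soil (filled circles, with an open square for replicate 3 of S1587-17) and in acid soil (open circles); every panel spans 2.8 log2 units. For ribosomal proteins, chaperones and cell division the Cat100-6 control soil arrays lie below both acid soil groups and below replicates 1 and 2 of S1587-17, and replicate 3 lies between them or with Cat100-6.

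Enzymes of carbon fixation were lower where they passed, with 1 exception. Of 12 probe sets of C4 and Calvin cycle enzymes 1 was higher in S1587-17 and 5 were lower (median -0.43), and 1 and 8 without replicate 3. The higher one was a dimmer probe set of pdk1 (1.07, adjusted p = 0.0026 in limma). The brightest probe set of pdk1 differed by -0.47 and did not pass, so that no gene of the list was higher by its brightest probe set. Rubisco activase rca1 was at 10.62, 11.13 and 12.17 in S1587-17 and 12.88, 12.99 and 12.99 in Cat100-6 (-1.65 ± 0.41, adjusted p = 0.0062). The glyceraldehyde phosphate dehydrogenase subunits gpa1 and gpb1 differed by -0.82 ± 0.21 and -0.72 ± 0.14. NADP-malic enzyme me3, which releases carbon dioxide in the bundle sheath, was at 11.81, 12.24 and 13.15 in S1587-17 and 13.76, 13.73 and 13.72 in Cat100-6 (-1.34 ± 0.42, adjusted p = 0.021). Its adjusted p lay between 0.051 and 0.087 when any array other than replicate 3 of S1587-17 was left out and was 0.0027 without replicate 3. In rca1 and me3 replicates 1 and 2 of S1587-17 were lowest, and replicate 3 lay between them and Cat100-6. In acid soil 0 of the 12 probe sets passed, with a median of -0.03.

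Of the photosystem and antenna genes Lhcb5-2 was the one that was higher. Among 17 probe sets 1 was higher and 3 were lower, with a median of -0.15; without replicate 3 the counts were 1 and 7. The photoprotection subunit psbs1 differed by -0.69 ± 0.19 and ferredoxin fdx2 by -0.73 ± 0.20. Pigment enzymes were lower where they passed. Of 6 probe sets 0 were higher and 3 lower, and all 6 were lower without replicate 3. dxs1, the first step of plastid isoprenoid synthesis, was at 10.02, 9.88 and 10.72 in S1587-17 and 11.75, 11.81 and 11.74 in Cat100-6 (-1.56 ± 0.23), and the carotene hydroxylase crtRB1 at 9.53, 9.69 and 10.58 in S1587-17 and 11.35, 11.19 and 11.11 in Cat100-6 (-1.28 ± 0.24). Both were lower in acid soil too (-0.75 and -1.29). Phytoene desaturase pds1 differed by -0.76 ± 0.22 in control soil, lost its call without replicate 1 (-0.67) or replicate 2 (-0.61) of S1587-17, and differed by 0.05 in acid soil.

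Starch and sucrose genes were mostly lower where they passed. Of 32 probe sets (27 genes) 6 were higher and 16 lower, with a median of -0.33, and 7 and 16 passed without replicate 3. The granule-bound starch synthase gene GBSSIIa was at 6.62, 6.94 and 6.72 in S1587-17 and 8.76, 8.88 and 8.92 in Cat100-6, 4.26-fold lower (adjusted p = 8.4e-08), with a difference of -1.23 in acid soil. Fructokinase frk2 went the opposite way, at 12.51, 12.73 and 12.05 in S1587-17 and 9.66, 9.87 and 9.62 in Cat100-6 (2.71 ± 0.19; 0.98 in acid soil). Agp2, of ADP-glucose pyrophosphorylase, which makes the starch precursor, was at 10.34, 10.38 and 9.95 in S1587-17 and 8.86, 8.99 and 8.88 in Cat100-6 (1.31 ± 0.13), with -0.10 in acid soil. The groups did not overlap in any of the 3. In both soils the same direction passed for 1 higher and 7 lower probe sets of the list, and for 17.3% of all probe sets.

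Respiratory and fermentative genes split. Among 37 probe sets 11 were higher and 14 lower (median -0.09; 12 and 15 without replicate 3). The cytosolic glyceraldehyde phosphate dehydrogenase gene gpc4 was at 9.98, 10.29 and 9.61 in S1587-17 and 7.40, 7.49 and 7.10 in Cat100-6 (2.63 ± 0.17; 0.87 in acid soil). Its relative gpc3 differed by 1.52 ± 0.12 on its brightest probe set and by -0.62 and -0.56 on 2 dimmer ones, all passing. The alternative oxidase aox1, which bypasses part of the respiratory chain, was at 6.86, 6.87 and 7.22 in S1587-17 and 8.82, 8.83 and 9.03 in Cat100-6, 3.76-fold lower (adjusted p = 3.5e-07), with a difference of -1.64 in acid soil.

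Lignin genes had the lowest median of the lists with at least 5 probe sets. Of 6 probe sets 0 were higher and 4 lower, with a median of -1.77; 5 were lower without replicate 3 and the median was -2.13. Besides cncr1, the cinnamyl alcohol dehydrogenase CAD2, which makes the monomer alcohols, was at 9.20, 9.57 and 10.42 in S1587-17 and 11.98, 12.07 and 11.81 in Cat100-6, 4.68-fold lower (adjusted p = 6.5e-05). The laccase LAC1, which couples monomers in the wall, was at 8.02, 8.16 and 9.33 in S1587-17 and 10.37, 10.70 and 10.61 in Cat100-6 (-2.05 ± 0.43), and the second cinnamoyl-CoA reductase ccr2 differed by -1.49 ± 0.25. In cncr1, CAD2 and LAC1 replicate 3 of S1587-17 was the nearest of its group to Cat100-6 and still below every Cat100-6 array. CAD2 was also lower in acid soil (-1.86), where LAC1 and ccr2 differed by 0.09 and -0.28 and did not pass.

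Other cell wall genes passed in both directions. Among 48 probe sets 7 were higher and 7 lower, with a median of -0.05, and 10 and 14 without replicate 3. With and without replicate 3 these shares were below those of all probe sets. The expansin gene expa2, of proteins that loosen walls, was at 6.35, 6.34 and 5.10 in S1587-17 and 4.27, 4.07 and 4.49 in Cat100-6 (1.65 ± 0.29; 1.74 in acid soil). RGP, a reversibly glycosylated polypeptide of wall sugar metabolism, differed by 1.43 ± 0.22, with 2.01 on its other probe set. The expansin gene expB8 differed by 0.68 ± 0.14 on its brightest probe set. A second probe set of expB8, at means of 9.82 in S1587-17 and 8.01 in Cat100-6 (adjusted p = 9.9e-06 in limma), differed by more, and the remaining one differed by -0.07 and did not pass. A cellulose synthase gene, CesA-4, differed by -0.58 ± 0.14. In acid soil the differences of RGP, expB8 and CesA-4 on their brightest probe sets were -0.07, 0.03 and -0.16.

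Several aquaporins were higher in S1587-17 in both soils, although the share of the family that passed in control soil was near that of all probe sets. Of 36 probe sets (28 genes) 12 were higher and 9 lower in control soil (median -0.08), and 13 and 3 in acid soil, 10 higher and 2 lower in both. Of all probe sets 17.3% passed in both soils in the same direction. Without replicate 3 the control soil counts were 11 and 14. Next to pip2b, pip2-5 was at 8.68, 8.82 and 9.77 in S1587-17 and 6.78, 6.67 and 6.73 in Cat100-6 (2.37 ± 0.23; 1.46 in acid soil), and PIP1-3 at 11.53, 11.59 and 11.67 in S1587-17 and 10.58, 10.39 and 10.45 in Cat100-6 (1.12 ± 0.10; 0.73 in acid soil). The channel gene nip1a was at 11.43, 11.05 and 11.01 in S1587-17 and 8.94, 8.69 and 9.03 in Cat100-6 (2.28 ± 0.15) but 0.37 apart in acid soil, a change that passed (adjusted p = 8.1e-04). All 4 genes had every S1587-17 array above every Cat100-6 array.

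Genes of ion transport were mostly lower in S1587-17 where they passed. Of 19 probe sets 3 were higher and 10 lower, with a median of -0.56, and the counts were the same without replicate 3. The potassium channel gene kch4 was at 3.36, 3.11 and 3.53 in S1587-17 and 5.38, 5.17 and 5.74 in Cat100-6, 4.27-fold lower (adjusted p = 1.1e-05), and another, ZMK2, differed by -0.56 ± 0.12. phytase1, for an enzyme that frees phosphate from phytate, was at 8.76, 8.94 and 9.38 in S1587-17 and 10.94, 10.58 and 10.72 in Cat100-6 (-1.72 ± 0.24). In acid soil kch4 stood at means of 2.96 in S1587-17 and 2.97 in Cat100-6, ZMK2 differed by -0.03 and phytase1 by -0.89, the last passing. Ferritins, which store iron, were lower: fer1 differed by -0.77 ± 0.09 and fer2 by -0.69 ± 0.14 in control soil and by -0.58 and -0.45 in acid soil. The iron transporter gene ys1 was at 5.59, 7.75 and 9.64 in S1587-17 and 5.22, 5.41 and 5.42 in Cat100-6 (2.31 ± 0.75, adjusted p = 0.023), a wide spread among the S1587-17 arrays. It lost its call without replicate 2 of S1587-17 (2.27) or without any 1 Cat100-6 array (2.25 to 2.35), when the 6 control soil arrays were fitted alone (2.31) and with array weights (1.10), and differed by 1.32 without replicate 3.

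Glutathione transferases passed in both directions, in control soil in shares near those of all probe sets. Of 35 probe sets (31 genes) 9 were higher and 10 lower, and 10 and 13 without replicate 3. In both soils 5 were higher and 7 lower, where 17.3% of all probe sets passed in both soils in the same direction. gst10 was at 9.05, 9.21 and 9.34 in S1587-17 and 10.81, 10.98 and 10.87 in Cat100-6 (-1.69 ± 0.11), gst2 differed by -1.34 ± 0.10 and gst30 by -1.31 ± 0.11, while gst9 was at 8.80, 9.07 and 8.76 in S1587-17 and 7.52, 7.64 and 7.59 in Cat100-6 (1.29 ± 0.11). Acid soil gave -1.92, -1.63, -0.90 and 0.99 for these genes, all passing. Among 21 probe sets of antioxidant enzymes 4 were higher and 6 lower, and 6 and 6 without replicate 3, the thioredoxin gene trxh1 being higher by 0.98 ± 0.17.

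Nitrogen and sulfur genes had 4 higher and 7 lower of 23 probe sets, and 1 and 10 without replicate 3. Sulfite reductase sir, which follows the aprl1 step, was at 8.90, 9.29 and 9.02 in S1587-17 and 10.38, 10.77 and 10.56 in Cat100-6 (-1.50 ± 0.17), with its other probe sets at -1.05 and -0.07. Glutamine synthetase genes differed in direction: gln5 was at 9.98, 9.58 and 9.12 in S1587-17 and 7.44, 7.53 and 7.74 in Cat100-6 (1.99 ± 0.20), and gln1 at 11.28, 11.41 and 12.16 in S1587-17 and 12.74, 12.64 and 12.70 in Cat100-6 (-1.07 ± 0.24). In acid soil sir and gln5 differed by -0.97 and 1.50, which passed, and gln1 by -0.20, which did not.

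Hormone and defence genes completed the comparison. Of 28 probe sets of auxin, cytokinin and gibberellin genes 5 were higher and 11 lower (median -0.16), and 4 and 13 without replicate 3. aic1, an auxin influx carrier gene also called aux1, was at 7.27, 7.97 and 6.08 in S1587-17 and 4.41, 4.22 and 4.26 in Cat100-6 (2.81 ± 0.35, and 3.32 without replicate 3). The auxin-binding protein gene abp1 differed by 1.22 ± 0.15 and HP3, a phosphotransfer protein of cytokinin signalling, by 1.14 ± 0.18. In acid soil HP3 was also higher (0.84), and aic1 and abp1 differed by 0.86 and 0.04. Of 14 defence probe sets 4 were higher and 4 lower, and 4 and 3 without replicate 3. The terpene synthase gene TPS4 was at 5.17, 5.12 and 6.09 in S1587-17 and 3.42, 3.06 and 3.28 in Cat100-6 (2.21 ± 0.22; 1.90 in acid soil), and wip1, a wound-induced proteinase inhibitor, at 4.15, 4.36 and 4.49 in S1587-17 and 5.80, 6.50 and 6.37 in Cat100-6 (-1.89 ± 0.22; -0.78 in acid soil). Of 6 benzoxazinoid probe sets 1 was higher, glu1, and 1 lower, glu2 (-1.03 ± 0.23), and 4 were higher without replicate 3. The pathway's first enzyme, bx1, was at 11.15, 11.19 and 10.44 in S1587-17 and 10.57, 10.53 and 10.38 in Cat100-6 (0.43 ± 0.17, adjusted p = 0.059), so that replicate 3 of S1587-17 lay within the Cat100-6 range.

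**Figure D3:**
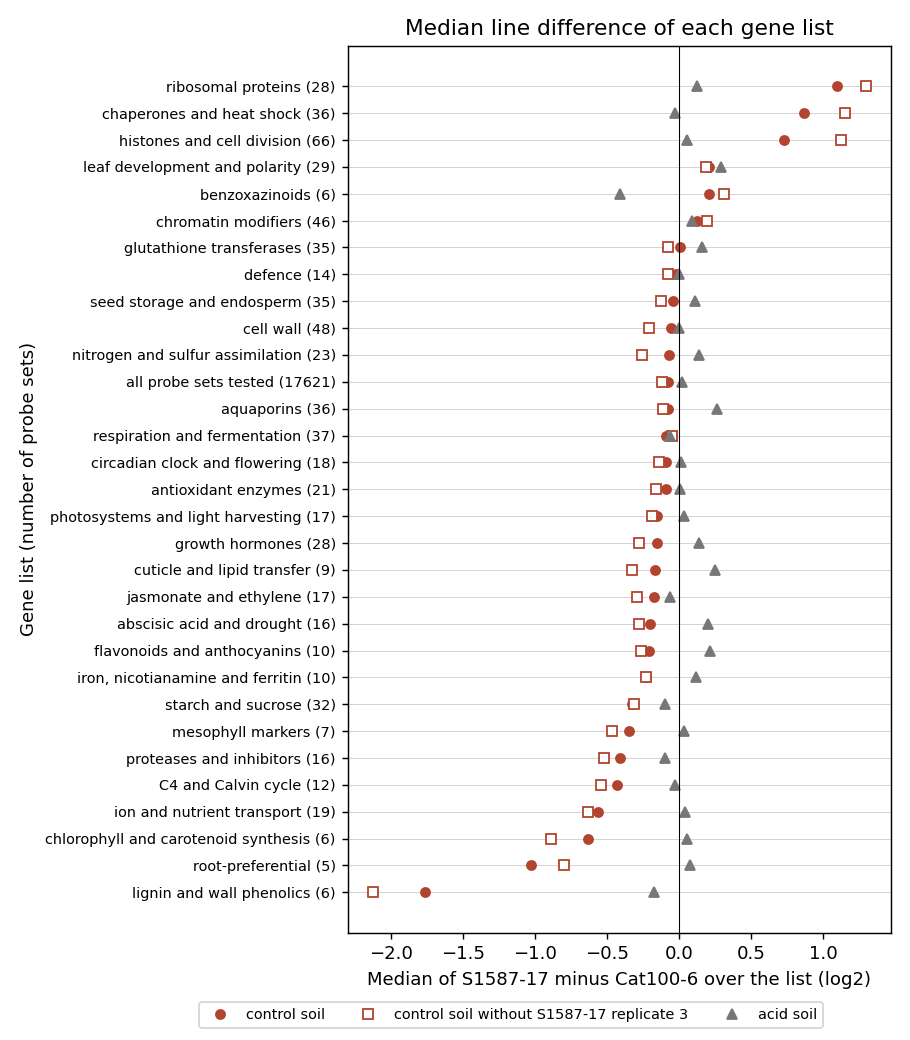
Median line difference (log2, S1587-17 minus Cat100-6) of each described gene list with at least 5 probe sets and of all probe sets, in control soil, in control soil without replicate 3 of S1587-17 and in acid soil. In control soil the medians run from -1.77 for lignin and wall phenolics to 1.10 for ribosomal proteins, and in acid soil from -0.41 for benzoxazinoids to 0.29 for leaf development and polarity.

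Cell type markers were read beside these groups. The mesophyll gene pep1, phosphoenolpyruvate carboxylase, was at 13.56, 13.71 and 13.99 in S1587-17 and 14.12, 14.11 and 14.06 in Cat100-6 (adjusted p = 0.23). The log2 of the summed linear level of the 4 genes found for 7 listed mesophyll markers was 14.80 to 15.23 in S1587-17 and 15.42 to 15.43 in Cat100-6. Of these 4 genes 0 were higher and 1 was lower, beside 28.2% lower of all probe sets. The lower one, mdh6 (-0.61), missed the threshold when any array other than replicate 3 of S1587-17 was left out (adjusted p 0.067 to 0.104 in limma). Another of the 4, pdlk1, came in through a synonym of a listed name and is not a listed marker. The 3 bundle sheath markers found, of 8 listed, summed to 13.50 to 14.42 in S1587-17 and 14.87 to 14.90 in Cat100-6, with 2 lower. The 8 markers found of 18 listed for dividing cells and the shoot meristem summed to 11.18, 11.60 and 8.17 in S1587-17 and 8.10, 8.06 and 8.18 in Cat100-6, with 4 higher and 1 lower. Replicate 3 of S1587-17 was again at the Cat100-6 level. Without it the division markers cyc2 (adjusted p = 1.7e-04 in limma) and pcna1 (4.7e-06) passed as higher too. The mesophyll marker pdk1 (0.032) and the bundle sheath marker rbcs1 (0.014) then passed as lower, as did pdlk1 (0.019). In acid soil the markers of dividing cells and meristem summed to 11.08 to 11.50 in S1587-17 and 10.42 to 11.40 in Cat100-6, both far above Cat100-6 in control soil. The meristem gene kn1 itself, a homeobox gene, was at 4.75, 4.70 and 4.52 in S1587-17 and 4.60, 4.51 and 4.55 in Cat100-6 (adjusted p = 0.43), a difference that did not pass. The part of division and leaf age in the differences of the other groups was not tested.

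Root markers were lower in S1587-17 where they passed. The 3 root markers found, of 7 listed, summed to 8.11 to 8.41 in S1587-17 and 9.56 to 9.63 in Cat100-6, with 2 lower in S1587-17; zrp4 was at 5.60, 5.36 and 6.07 in S1587-17 and 7.43, 7.84 and 8.05 in Cat100-6 (-2.10 ± 0.21) and the tonoplast aquaporin tip2b differed by -1.03 ± 0.18. In acid soil zrp4 and tip2b differed by -0.29 and 0.07. The 5 genes found for 13 listed seed markers summed to 7.41 to 7.62 in S1587-17 and 7.73 to 7.97 in Cat100-6, with 2 lower. Of the lower ones prf1 (-0.65), a profilin gene, came in through a synonym of a listed name and is no seed marker. The other, gz27 (-0.44), missed the threshold without replicate 3 of S1587-17. The zein gene z1C2, a seed storage protein, was at means of 2.27 in S1587-17 and 2.37 in Cat100-6. The 3 epidermis and cuticle markers found, of 8 listed, summed to 12.16 to 12.84 in S1587-17 and 12.52 to 12.68 in Cat100-6. Of these gl15, which holds leaves in the juvenile phase, was higher in S1587-17, at 8.43, 7.86 and 7.31 against 6.88, 6.83 and 6.77 in Cat100-6 (1.04 ± 0.24).

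Part of the line differences recurred in the acid soil arrays. In acid soil 4223 probe sets passed (24%), 1875 higher and 2348 lower. The spiked hybridization controls averaged 10.17 in S1587-17 and 9.71 in Cat100-6 there, and scaling the arrays to them gave 528 higher and 6338 lower in acid soil, so that the acid soil split depends on the scaling. In the same direction 3054 probe sets passed in both soils (17.3%), which is 33.7% of the control soil calls and 72.3% of the acid soil calls, and in opposite directions 74 did (0.42%). Of the 1108 genes 73 were higher and 110 lower in both soils. Across the 17621 probe sets the differences in the 2 soils, which share no array, correlated at 0.678, and at 0.596 without replicate 3; probe sets are not independent of each other. The median size of the difference was 0.39 in control soil and 0.23 in acid soil. The control soil difference was itself different from that in acid soil at 2588 probe sets (14.7%), 1544 with a positive change (8.76%) and 1044 with a negative one (5.92%), and at 7920 (44.9%) without replicate 3. Differences of at least 16-fold passed at 105 probe sets in control soil, 69 higher and 36 lower, and 53 of these were as large in the same direction in acid soil.

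**Figure D4:**
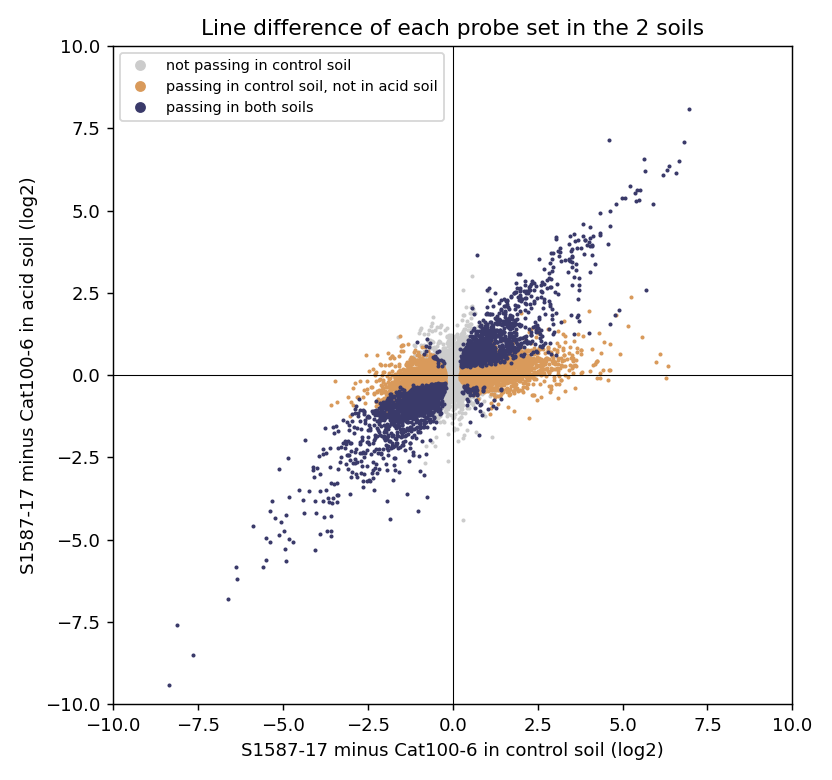
Line difference (S1587-17 minus Cat100-6, log2) of each of the 17621 probe sets in control soil (x axis) and in acid soil (y axis), coloured by where it passed. One arm follows the diagonal, the differences present in both soils, and another lies along the x axis, mostly higher in S1587-17 in control soil and near 0 in acid soil.

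The deviating array followed the same division. On a scale on which 0 is the Cat100-6 control soil mean and 1 the mean of replicates 1 and 2 of S1587-17, replicate 3 had a median position of 0.58 over the 1243 probe sets that differed by at least 2 log2 units without it. At the 268 of these that differed by at least 2 log2 units in the same direction in acid soil, its median position was 0.949 (quartiles 0.823 and 1.07), and 7 lay below 0.5. At the 499 that differed by less than 0.5 in acid soil, the median was 0.398 (quartiles 0.188 and 0.560), and 334 lay below 0.5. Replicate 3 thus carried the S1587-17 level at most probe sets whose difference was large in both soils, and a level nearer to Cat100-6 at most of those whose difference was small in acid soil. These probe sets were chosen by measured values, and the positions are a description.

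**Figure D5:**
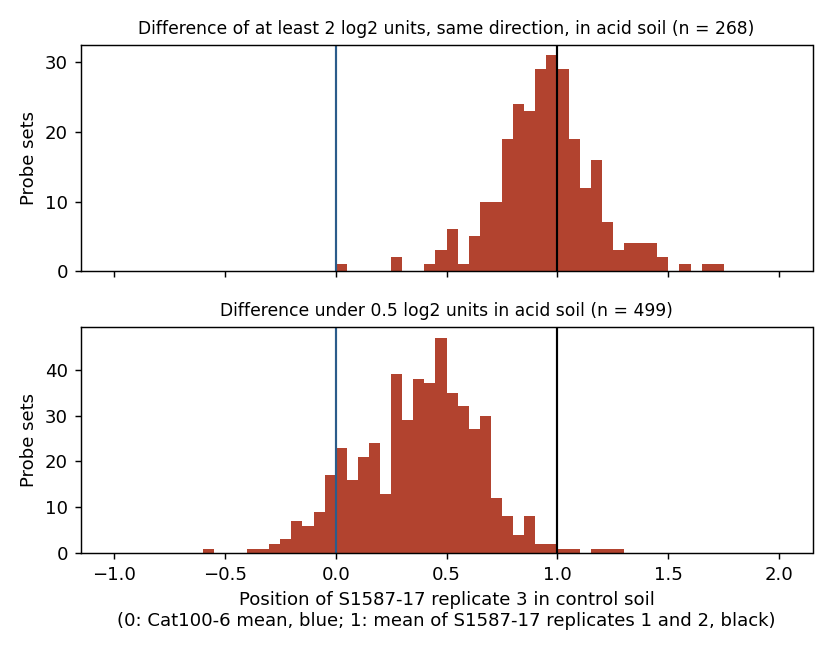
Position of replicate 3 of S1587-17 in control soil between the Cat100-6 mean (0) and the mean of its group-mates (1), for probe sets that differed by at least 2 log2 units between the lines without it. The upper panel, for the 268 probe sets with a difference of that size in acid soil, centres near 1, and the lower panel, for the 499 with a small difference in acid soil, near 0.4.

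The highest and the lowest difference belonged to probe sets that the annotation gives no gene. The highest was at 11.85, 11.97 and 7.94 in S1587-17 and 3.59, 3.85 and 3.43 in Cat100-6 (6.96 ± 0.80, and 8.29 without replicate 3), and the next at 11.78, 11.64 and 11.26 in S1587-17 and 4.83, 5.07 and 4.38 in Cat100-6 (6.80 ± 0.19). The other 3 of the 5 highest with no gene differed by 6.67, 6.56 and 6.36. In the opposite direction the lowest was at 7.09, 4.84 and 4.70 in S1587-17 and 13.88, 13.90 and 13.91 in Cat100-6 (-8.35 ± 0.48), and the next averaged 4.74 ± 0.23 in S1587-17 and 12.86 ± 0.11 in Cat100-6 (SD, n = 3 each), a difference of -8.11 ± 0.15. The other 3 of the 5 lowest with no gene differed by -6.39, -6.34 and -5.87. All 10 passed in acid soil in the same direction, from -9.43 for the lowest to 8.08 for the highest.

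Probe sets of 1 gene did not always differ alike. Beside pdc2, gpc3 and pdk1, the genes his1 and gst13 were picked after their values were seen. The linker histone gene his1 had 6 probe sets. One differed by -7.64 in control soil and -8.52 in acid soil, and another by -6.61 and -6.80. A further bright probe set of his1 had means of 10.06 in S1587-17 and 9.95 in Cat100-6, a difference of 0.12 that did not pass, and its 3 dim ones differed by -0.34, -0.34 and -0.20. The glutathione transferase gst13 differed by 5.65 on one probe set, with means of 9.19 in S1587-17 and 3.54 in Cat100-6, and by 0.86 on the other. Among genes described above, m21 differed by -0.84 on its other probe set, kch3 by -1.31 and RPL10 by 0.55, all passing in the direction of the brightest one. The other probe sets of RP-P0 (-0.20) and fer2 (-0.17), and 1 of the 4 further ones of PIP1-3 (-0.05), did not pass. Which of transcript level, isoform and probe match differed in these genes cannot be told apart.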

How the data were processed

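Leaf RNA of 12 samples was hybridized to Affymetrix maize arrays, with 3 arrays in each of 4 groups. The authors deposited a table of log2 values per probe set, made with RMA per the submitters' processing notes. Which program ran RMA, and how, is not given in the sources used here. There are no reads behind array values, and precision is set by how many arrays there are. The 113 AFFX probe sets were left out, which left 17621. Each was named from the platform's annotation, updated through the RefSeq gene table by gene ID: 1452 probe sets had 1 gene, 1 had several and 16168 had none. Of 1108 genes 1060 were in the RefSeq table and 973 had a readable name. All columns were mapped to samples, and no coordinates are printed.

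All 12 arrays were fitted in limma 3.58.1 (R 4.3.3) with 1 mean per group and moderated variance (8 residual degrees of freedom). Contrasts were S1587-17 minus Cat100-6 in each soil and the difference of the 2 contrasts. Benjamini-Hochberg adjustment ran over all probe sets, with a threshold of 0.05. The members, gene lists and tests were chosen with earlier results of these data known. Named are the 15 highest and 15 lowest genes with a readable name that passed with and without replicate 3 of S1587-17 and whose groups did not overlap. Up to 4 genes of each list by lowest p, passing or not, and the 5 highest and 5 lowest probe sets with no gene are named too. Genes were read by their brightest probe set. The 33 lists were matched on symbols and on RefSeq synonyms, which the plan had not foreseen, and 73 matches to other genes were left out. Not every gene that the rule selects is described, and the results of 1 list and its genes are not reported here. The alternatives were leaving out each array, the 6 compared arrays alone, the replicate number as a block, a filter on the 40% dimmest probe sets, other scalings, other variance models, array weights and a test against a log2 difference of 1. The code was tested on simulated data. Plots were drawn with matplotlib 3.10.9, pandas 2.3.3 and numpy 2.4.6.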

Additional observations from a re-analysis of the deposited data

Results flagged for a closer look

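The line difference in control soil was not that in acid soil at 2588 probe sets, by limma's test of the control soil difference minus the acid soil difference. This double difference, in log2 units, is positive where S1587-17 stood higher relative to Cat100-6 in control soil than in acid soil. It passed for these named genes. Among the genes highest in S1587-17 in control soil it was 3.38 for prp2, 2.78 for fps1 and 2.56 for crt2. Among the lowest it was -2.17 for chn1, -1.67 for hsp18, -3.17 for sps1, -2.02 for kch3, -1.19 for CAT3 and -1.76 for cncr1.

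In protein synthesis and folding it was 1.12 for RP-P0, 1.74 for rpp2a-3, 1.09 for rps27, 1.10 for pdi4 and 0.92 for pdi3. For tubulins and chromatin it was 1.40 for tub4, 1.23 for tua6, -0.73 for hac108 and -0.84 for rpd3. For growth regulators it was 1.18 for abp1, 1.95 for aic1 and 2.53 for lbl1. In starch, sugar and glycolytic metabolism it was -0.87 for GBSSIIa, 1.73 for frk2, 1.42 for Agp2, 1.77 for gpc4 and 1.29 for gpc3. For lignin and cell wall genes it was -1.20 for ccr2, -2.14 for LAC1, 1.50 for RGP and 0.65 for expB8. For transport, redox and defence it was 1.91 for nip1a, -2.09 for kch4, 0.83 for trxh1 and -1.11 for wip1. For root-preferential genes and others it was -1.81 for zrp4, -1.10 for tip2b, -0.85 for ohp2 and 0.94 for fae1. Without replicate 3 of S1587-17 in control soil, 7920 probe sets passed this test.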

How the results depend on the processing

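With 3 arrays a group, the precision is limited by their number, and the counts were higher without replicate 3 of S1587-17 in control soil than with it. Leaving out each control soil array in turn gave 7455 to 10804 passing probe sets against 9071 with all, 3488 to 4704 higher and 3954 to 6100 lower, the top of each range being without replicate 3 of S1587-17. For the change between soils that array moved the count to 7920, against 2588. For acid soil the omission of each acid soil array gave 2923 to 4140 against 4223 with all, 1253 to 1710 higher and 1647 to 2430 lower. This range does not cover the omission of control soil arrays, which also enter the spread. Fits of only the 6 arrays of a soil, whose spread the other soil does not enter, gave 7298 in control soil and 4823 in acid soil.

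A test against a log2 difference of 1 left 985 in control soil, 546 higher and 439 lower, and 433 in acid soil, 209 and 224; it asks for a larger difference by construction. Scaling to the hybridization controls gave 6858 in control soil, and in acid soil 6866, 528 higher and 6338 lower, so that 7.7% of the acid soil calls were higher against 44.4%. Without the 40% dimmest probe sets, 1218 were higher in acid soil. The median of the glutathione transferase list changed sign, to -0.077 without replicate 3 of S1587-17 and to -0.00069 with 1 probe set per gene, against 0.01. That of the aluminium tolerance list, with 2 probe sets, was 0.32 with 1 probe set per gene, against -0.07. The cause of these sign changes was not tested.

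The titles link replicates of the 2 lines by their number only, and whether they shared more is not given. Deviations from the group means correlated at 0.09, 0.02 and 0.09 for the same number and at -0.12 to 0.11 for different numbers. With the replicate block 9331 passed in control soil (4214 higher and 5117 lower) and 4444 in acid soil, and all 137 named results of control soil kept their call. With the block and without replicate 3 of S1587-17 in control soil, 5974 passed in acid soil, 2861 higher and 3113 lower. Of the same 137, 82 missed the threshold of the test against a log2 difference of 1, and between 6 and 10 missed it without 1 of the other 5 control soil arrays.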

Other observations

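Proteases and their inhibitors were lower in S1587-17 where they passed. Of 16 probe sets 0 were higher and 7 lower in control soil (median -0.41), and 0 and 9 without replicate 3 of S1587-17. The cysteine protease gene mir2 was at 7.35, 7.64 and 7.91 in S1587-17 and 9.77, 9.75 and 9.49 in Cat100-6 (-2.04 ± 0.26, adjusted p = 8.7e-05 in limma), with -0.90 in acid soil. The cystatin genes cc7 and cc3, for inhibitors of such proteases, differed by -1.88 ± 0.25 and -1.05 ± 0.18 in control soil and by -2.02 and -0.63 in acid soil, and all 4 values passed.

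Genes of jasmonate and ethylene had 4 higher and 7 lower of 17 probe sets, and 4 and 5 without replicate 3. The ethylene-forming oxidase acco20 was at 6.85, 6.98 and 8.21 in S1587-17 and 9.42, 9.37 and 9.58 in Cat100-6 (-2.11 ± 0.28; -0.93 in acid soil), and the oxophytodienoate reductase opr5 at 9.43, 9.06 and 9.79 in S1587-17 and 11.07, 11.44 and 11.36 in Cat100-6 (-1.86 ± 0.23; -0.89 in acid soil). The ethylene receptor gene etr2 differed by -0.61 ± 0.11 and opr3 by 0.63 ± 0.17, with -0.33 and 0.03 on their other probe sets. Of 16 probe sets of abscisic acid and drought genes 5 were higher and 4 lower, and 4 and 5 without replicate 3. The aldehyde oxidase gene AO1 was among the lower ones (-0.93 ± 0.13; -1.11 in acid soil).

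The MADS-box genes zmm6 and ZMM2 differed in opposite directions in both soils, by -1.57 ± 0.23 and 1.02 ± 0.17 in control soil and by -1.25 and 1.22 in acid soil. In the list of clock and flowering genes 3 of 18 probe sets were higher and 3 lower, also without replicate 3. The fatty acid desaturase gene fad7 was at 9.87, 10.02 and 10.65 in S1587-17 and 11.26, 11.25 and 11.34 in Cat100-6 (-1.10 ± 0.18; -0.55 in acid soil), and of 9 probe sets of cuticle and lipid genes 2 were higher and 2 lower, also without replicate 3, fae1 being one of the higher ones (0.85 ± 0.11). Flavonoid genes had 0 higher and 2 lower of 10, iron genes 1 and 3 of 10, seed storage genes 3 and 3 of 35 and root-preferential genes 0 and 2 of 5. Without replicate 3 the counts were 0 and 3 for flavonoid, 1 and 2 for iron, 2 and 6 for seed storage and 0 and 3 for root-preferential genes. The flavonoid gene a2 missed the threshold when any array other than replicate 3 of S1587-17 was left out (adjusted p 0.063 to 0.110 in limma). Another, pl1, missed it without replicate 2 or 3 of Cat100-6 or replicate 1 or 2 of S1587-17, and when the 6 control soil arrays were fitted alone. The seed list gene ohp2 differed by -1.07 ± 0.11. The aluminium tolerance list matched 1 gene, asr1, with 1 higher and 0 lower of 2 probe sets, also without replicate 3. Its brightest probe set was at 12.93, 12.74 and 12.90 in S1587-17 and 12.58, 12.43 and 12.59 in Cat100-6 (0.32 ± 0.11, adjusted p = 0.026), and missed the threshold without replicate 1 of S1587-17 (0.29) or replicate 2 of Cat100-6 (0.27). It also missed it when the 6 control soil arrays were fitted alone (0.32), after a second quantile normalization (0.26) and when scaled to the hybridization controls (0.27). The other probe set of asr1 differed by -0.45, which did not pass.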
